A study of Mus musculus with 10 samples.

Results

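The 10 genes described here encode the main stress chaperones of the cytosol and the mitochondrion. With earlier results of these data known, they were selected by name. They are HSPA1A (ENSG00000204389), HSPA1B (ENSG00000204388), HSPA8 (ENSG00000109971), HSP90AA1 (ENSG00000080824), HSP90AB1 (ENSG00000096384), HSPH1 (ENSG00000120694), HSPD1 (ENSG00000144381), HSPE1 (ENSG00000115541), DNAJB1 (ENSG00000132002) and BAG3 (ENSG00000151929). They are 10 of the 33538 human genes in the count table, and all 10 were among the 16013 genes that passed the filter on low counts. Their counts per library ranged from 159 for HSPE1 to 22001 for HSP90AB1.

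Chaperones of the HSP70 family bind unfolded stretches of other proteins and release them in cycles of ATP use. J-domain proteins such as DNAJB1 deliver the substrate and start ATP hydrolysis, and exchange factors such as HSPH1 and BAG3 let the substrate go. HSP90 takes over partly folded clients, many of them kinases and steroid receptors, and HSP60 with its lid HSP10 folds proteins imported into mitochondria. The transcription factor HSF1 is held inactive by chaperones in unstressed cells, and when unfolded protein accumulates it switches on this group of genes, with HSPA1A, HSPA1B and DNAJB1 among the most inducible. Tumour cells often depend on these chaperones to keep oncogenic client proteins folded.

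The tumours were flank grafts in female nude mice of the established human medulloblastoma line DAOY. Nude mice lack T cells and accept human grafts. All were treated for 30 days before bulk sequencing of poly(A) RNA from frozen tumour. Mice ate ordinary chow (labelled CTRL, control, n = 3), received an oil of docosahexaenoic acid (DHA; labelled OIL, n = 3) or received fish oil (labelled FO, n = 4). The fish oil group is read here as the arm given DHA with eicosapentaenoic acid (EPA). Both are omega-3 fatty acids. All groups share the same line and host, so they are tumours of 1 cell line and not of several patients' tumours, and doses and ages are not given in the labels. Nothing ties a library to a separate mouse, so each p-value speaks only of the spread among these samples, which may be technical. In bulk tissue, fewer cells of a type and less RNA per cell cannot be told apart.

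Total counts ran from 6187116 to 10035702 per library. Fish oil replicates 4 and 2 stood apart from the other 8 libraries on the first principal component of all tested genes, which held 26.4% of the variance. Their scores were 52.9 and 21.4 against -19.1 to 1.71, and replicate 2 lay nearer to the closest of the 8 than to replicate 4. Results that rest on replicates 4 and 2 are given with and without them. The line's identity and the host cell content were not checked against markers, because the table pairs no names with its identifiers.

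Levels are given as CPM, counts per 1000000 of the scaled library total. CPM is not corrected for transcript length, so levels are compared between libraries and not between genes.

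Among the HSP70 genes, the stress-inducible pair HSPA1A and HSPA1B was the most uneven of the 10 between tumours, and the constitutive HSPA8 was even in the control and DHA oil tumours but not in the fish oil tumours. HSPA1A, which encodes the classical heat-induced HSP70, stood at 51.6, 62.6 and 123.2 CPM in control replicates 1, 2 and 3, at 51.1, 34.0 and 64.0 CPM in DHA oil replicates 1 to 3, and at 54.8, 77.6, 67.1 and 52.1 CPM in fish oil replicates 1 to 4. Control replicate 3 was the highest of all 10 libraries and DHA oil replicate 2 the lowest, 3.62-fold apart, and all 3 diets overlapped. HSPA1B, its neighbouring and nearly identical copy, stood at 48.4, 56.1 and 107.8 CPM in control, at 53.0, 37.7 and 64.3 CPM in DHA oil, and at 54.0, 85.9, 76.7 and 49.1 CPM in fish oil. The same libraries were highest and lowest, 2.86-fold apart.

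HSPA8, the constitutive HSC70 that carries out everyday folding and uncoats clathrin vesicles, stood at 1299, 1262 and 1268 CPM in control, at 1053, 954.1 and 1016 CPM in DHA oil, and at 1284, 1544, 1005 and 1964 CPM in fish oil. All 3 DHA oil tumours were below all 3 controls. Fish oil spanned both groups, with replicate 3 among the lowest libraries and replicates 2 and 4 above every other. The SD was 19.7 CPM in control around a mean of 1276, 49.8 CPM in DHA oil around 1008, and 407.9 CPM in fish oil around 1449.

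The 3 partners of HSP70 did not share 1 pattern. DNAJB1, the J-domain protein that starts the HSP70 cycle, stood at 114.7, 132.5 and 199.0 CPM in control, at 105.5, 94.7 and 141.2 CPM in DHA oil, and at 136.1, 160.5, 131.6 and 152.8 CPM in fish oil. As for the inducible HSP70 genes, control replicate 3 was highest and DHA oil replicate 2 lowest. HSPH1, the HSP110 exchange factor that helps HSP70 dissolve aggregates, stood at 160.2, 125.1 and 134.3 CPM in control, at 114.7, 117.9 and 119.9 CPM in DHA oil, and at 120.2, 155.1, 118.2 and 177.5 CPM in fish oil. All DHA oil values were below all control values, and fish oil replicate 4 was highest. BAG3, an exchange factor that also links HSP70 to small heat shock proteins and to autophagy, stood at 44.34, 44.95 and 51.99 CPM in control, at 39.3, 37.7 and 47.4 CPM in DHA oil, and at 44.7, 39.7, 44.2 and 39.6 CPM in fish oil. It was the most even of the 10 genes, with its highest library 1.38-fold above its lowest.

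Both cytosolic HSP90 genes were lowest in DHA oil tumours and highest in fish oil replicates 4 and 2. HSP90AA1, the more stress-responsive of the pair, stood at 1142, 1089 and 1235 CPM in control, at 972.7, 1022 and 1122 CPM in DHA oil, and at 1045, 1536, 1023 and 1707 CPM in fish oil. Its 3 diets overlapped. HSP90AB1, the constitutive form, stood at 1865, 2036 and 2126 CPM in control, at 1690, 1695 and 1803 CPM in DHA oil, and at 1861, 2159, 1957 and 2477 CPM in fish oil. Every DHA oil value of HSP90AB1 was below every value of the other diets, while control and fish oil overlapped.

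The mitochondrial pair is made of HSPD1, the HSP60 barrel, and HSPE1, its HSP10 lid, which are transcribed in opposite directions from a shared promoter. HSPD1 stood at 213.3, 160.7 and 193.6 CPM in control, at 171.5, 176.5 and 170.3 CPM in DHA oil, and at 186.7, 246.6, 185.8 and 273.8 CPM in fish oil. Every fish oil value was above every DHA oil value, and control overlapped both. HSPE1 stood at 32.0, 28.0 and 30.0 CPM in control, at 27.0, 26.4 and 29.5 CPM in DHA oil, and at 25.5, 36.9, 30.1 and 46.0 CPM in fish oil. Its lowest and its highest library were both fish oil tumours.

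**Figure D1:**
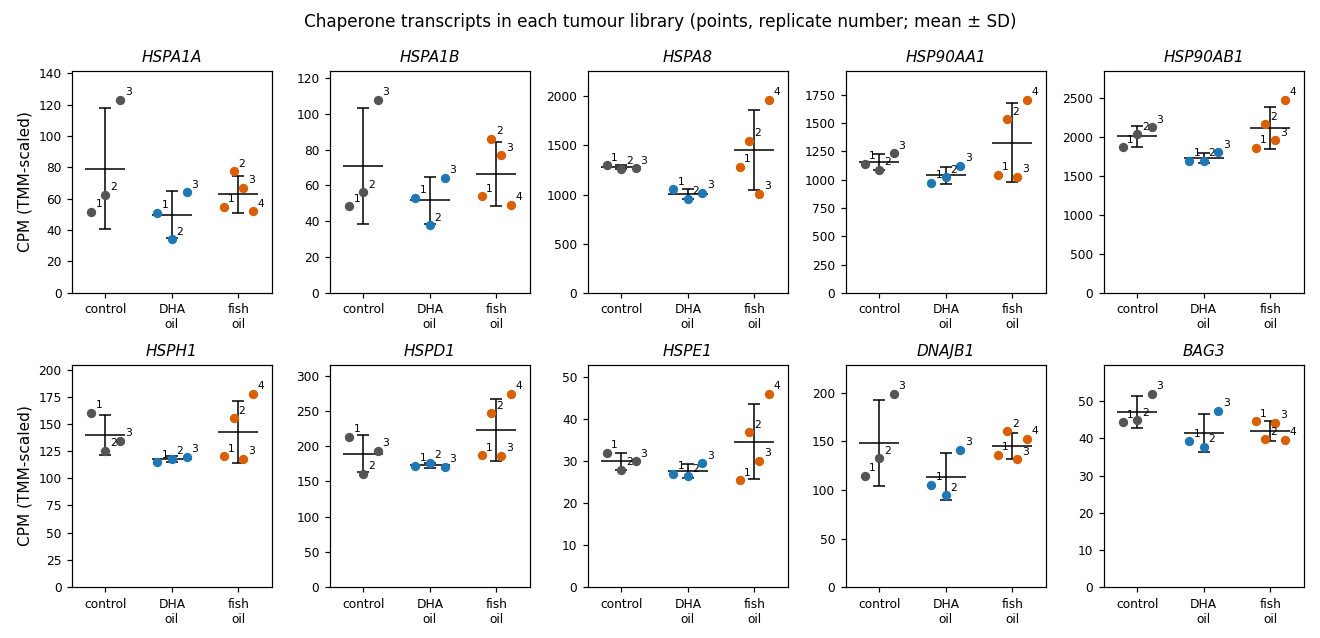
CPM of each chaperone gene (y axis, starting at 0) by diet (x axis); each point is 1 library with its replicate number, and the horizontal line and whiskers are the group mean and SD. Fish oil replicate 4 is the highest point for 6 genes and control replicate 3 for the other 4.

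The spread between tumours of 1 diet differed among the genes. The SD of log2 CPM within diets was 0.46 for both HSPA1A and HSPA1B, which placed them at the 87.1 and 87.2 percentiles of all genes tested, against a median of 0.24. DNAJB1 (0.29), HSPA8 (0.27), HSP90AA1 (0.26) and HSPE1 (0.25) lay just above that median, and HSPD1 (0.22) and HSPH1 (0.21) just below. HSP90AB1 and BAG3, both at 0.13, were at the 12.3 and 11.6 percentiles.

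The first question was whether DHA oil altered chaperone transcripts. All 10 genes had a lower fitted level in DHA oil than in control tumours, with a median log2 fold change of -0.23, but none passed the test. Over all 16013 genes 49.2% were lower and the median was 0.003. The 10 genes vary together between tumours, as described further on, so they are not 10 independent observations. With edgeR's quasi-likelihood test and Benjamini-Hochberg adjusted p-values, 0 of the 10 were called, with a smallest adjusted p of 0.9999, against 0% of all genes. At an unadjusted p under 0.05 there was 1 of the 10, against 2.74% of all genes. It was HSPA1A, 1.59-fold lower with a log2 fold change of -0.67 ± 0.29 (SE; edgeR unadjusted p = 0.0343) and overlapping groups. Over the 21 other settings of the fit this count ran from 0 to 4. It was 4 with limma-voom, against 6.26% of all genes, and 1 with DESeq2, against 2.4%.

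HSPA8 (log2 fold change -0.34 ± 0.19, SE), HSPH1 (-0.25 ± 0.16) and HSP90AB1 (-0.22 ± 0.15) were the 3 of 10 genes whose DHA oil libraries were all below the controls, against 5.93% of all genes tested. These 3 genes were the same under 3 ways of scaling the libraries. DNAJB1 had a log2 fold change of -0.38 ± 0.19 (SE; edgeR unadjusted p = 0.0655), and the other 5 genes lay between -0.45 and -0.12. The 95% intervals of the 10 genes reached from -1.28 to 0.28, which leaves room for changes of either sign in 9 of them.

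Control replicate 3 set much of the size for the inducible genes. Without it the log2 fold change was -0.20 for HSPA1A, -0.02 for HSPA1B and -0.12 for DNAJB1, the median of the 10 was -0.12, and no gene of the 10 had an unadjusted p under 0.05. HSPA8 stood at -0.35 without that library. HSPH1 depended on control replicate 1 instead, and stood at -0.15 without it.

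The second question was the effect of fish oil. No chaperone gene passed the test and directions were mixed, with 4 genes lower and 6 higher than in control tumours and a median log2 fold change of 0.05, where 48.5% of all genes were lower. HSPD1 was highest relative to control, at 0.24 ± 0.15 (SE; edgeR unadjusted p = 0.134). BAG3 stood at -0.16 ± 0.13 and HSPA1A at -0.33 ± 0.27, and the other 7 genes lay between -0.09 and 0.21. With edgeR 0 of the 10 were called, with a smallest adjusted p of 0.9988, against 0.00624% of all genes. The count at an unadjusted p under 0.05 was 0 of 10, against 3.48% of all genes, and 0 of 10 had groups that did not overlap, against 2% of all genes lower and 1.74% higher without overlap.

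The direction rested on few libraries. Without fish oil replicates 2 and 4 all 10 genes were lower than in control, with a median of -0.13, HSPD1 stood at -0.02 and BAG3 at -0.08. For 2 of the 10, HSP90AA1 and HSPH1, the remaining fish oil libraries were then all below the controls. The share of all genes that did so without those libraries was not computed. Without control replicate 3 only BAG3 was lower, at -0.09, the median was 0.19, and HSPA1A stood at 0.14. HSPA1A stood at -0.57 without control replicate 1, and HSPD1 at 0.13 without control replicate 2 or fish oil replicate 4. DHA oil and fish oil were set against the same 3 controls, so their values are not independent.

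**Figure D2:**
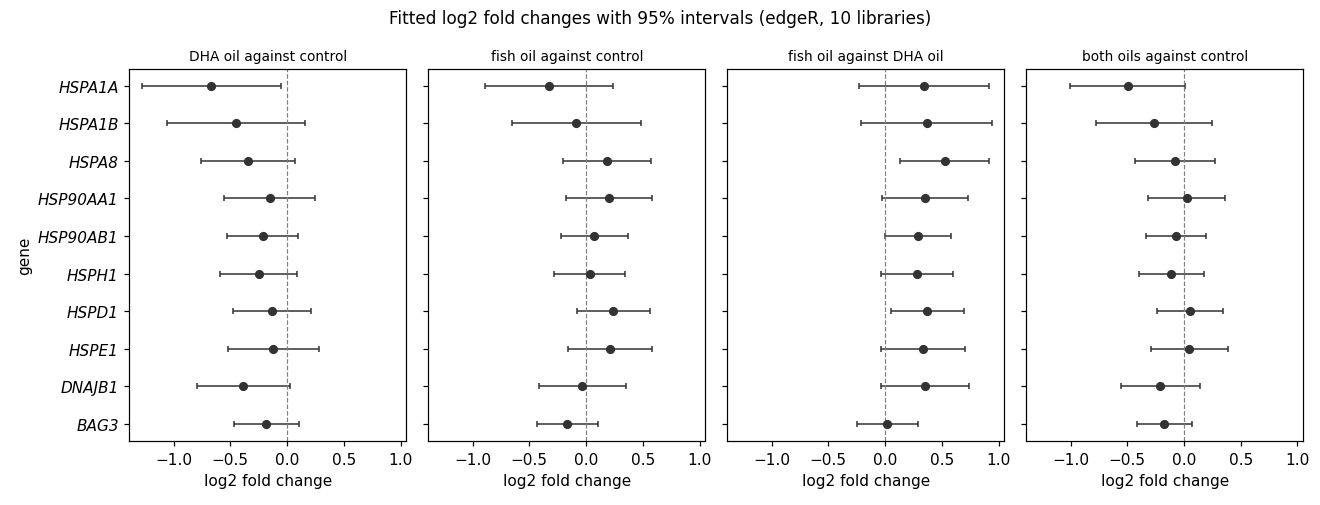
Fitted log2 fold change (x axis) of each chaperone gene (y axis) in 4 comparisons; points are edgeR estimates and bars 95% intervals. All 10 points are left of 0 for DHA oil against control and right of 0 for fish oil against DHA oil, and none passed the adjusted threshold.

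The third question was whether the oils differed from each other. Fish oil tumours had higher fitted levels of all 10 genes than DHA oil tumours, with a median log2 fold change of 0.35, where 47.9% of all genes were lower, but again none passed the adjusted threshold. HSPA8 was 1.44-fold higher, a log2 fold change of 0.52 ± 0.18 (SE; edgeR unadjusted p = 0.0120), with overlapping groups. HSPD1 was 1.29-fold higher, at 0.37 ± 0.15 (SE; edgeR unadjusted p = 0.0271), and HSP90AB1 1.22-fold higher, at 0.29 ± 0.14 (SE; edgeR unadjusted p = 0.0529). For these 2 of 10 genes every fish oil library was above every DHA oil library, against 2.87% of all genes, under 3 ways of scaling. The other 7 lay between 0.02, for BAG3, and 0.37.

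In edgeR's test 0 of the 10 were called, at an adjusted p of 0.875 for 9 of them, against 0% of all genes. At an unadjusted p under 0.05 there were 2 of 10, against 4.84% of all genes. Over the 21 other settings of the fit this count ran from 0 to 6. It was 6 without fish oil replicate 1, against 11% of all genes, and 4 without replicate 3, against 7.91%. Without replicates 2 and 4 it was 0, against 3.66%. At the adjusted threshold DESeq2 and limma-voom also called 0 of the 10, against 0.00624% and 0% of all genes. At an unadjusted p under 0.05 DESeq2 had 4, against 4.47% of all genes, and limma-voom 2, against 4.64%.

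Fish oil replicates 2 and 4 carried most of this difference. Without them the median was 0.13, HSP90AA1 was at -0.01, and no gene had an unadjusted p under 0.05. HSPA8 stood at 0.34 without replicate 4 alone. Without both, HSPA8 stood at 0.18, HSP90AB1 at 0.14 and HSPD1 at 0.11, while HSPA1A (0.30) and HSPA1B (0.35) were close to their values with all libraries.

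**Figure D3:**
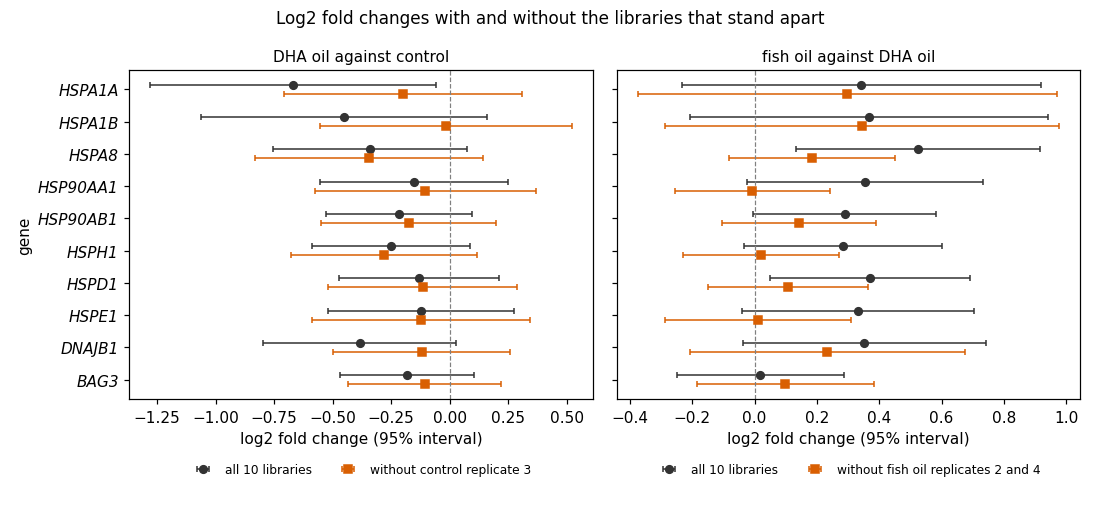
Log2 fold change with its 95% interval (x axis) of each gene (y axis) with all 10 libraries (circles) and without the named libraries (squares), for DHA oil against control on the left and fish oil against DHA oil on the right. HSPA1A, HSPA1B and DNAJB1 move toward 0 on the left, and the HSP90, HSPH1, HSPA8, HSPD1 and HSPE1 points move toward 0 on the right.

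Taking both oils together against control, 7 of the 10 genes were lower and the median log2 fold change was -0.09. HSPA1A stood at -0.50 ± 0.24 (SE; edgeR unadjusted p = 0.0539), DNAJB1 at -0.21 ± 0.16 and BAG3 at -0.17 ± 0.11. The other 7 lay between -0.27 and 0.05. None of the 10 was called by edgeR, with a smallest adjusted p of 0.9998, against 0.131% of all genes, and 0 had an unadjusted p under 0.05, against 2.62%. Without control replicate 3 the value of HSPA1A was -0.03, that of BAG3 -0.10 and that of DNAJB1 0.06, and 5 of the 10 genes were lower, with a median of 0.007. DNAJB1 stood at -0.37 without control replicate 1. Without fish oil replicates 2 and 4 all 10 genes were lower than in control, with a median of -0.20.

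The libraries that were high or low were not the same for all chaperones, and the genes fell into 2 sets, which were drawn after the values were seen. HSPA8, HSP90AA1, HSP90AB1, HSPH1, HSPD1 and HSPE1 peaked in the fish oil tumours that stand apart. Their mean deviation from the 10-library mean of log2 CPM was 0.51 in fish oil replicate 4 and 0.28 in replicate 2, between -0.22 and -0.14 in the 3 DHA oil libraries, and between -0.13 and 0.07 in the other 5. Each of the 6 was below its mean in each DHA oil library and above it in fish oil replicates 2 and 4.

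HSPA1A, HSPA1B, DNAJB1 and BAG3 peaked instead in control replicate 3. Their mean deviation was 0.67 there and -0.55 in DHA oil replicate 2. In fish oil replicate 4, the tumour with the highest HSP90 and HSP60 transcripts, it was -0.11, and HSPA1A and HSPA1B were each below their own mean, at -0.21 and -0.30.

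**Figure D4:**
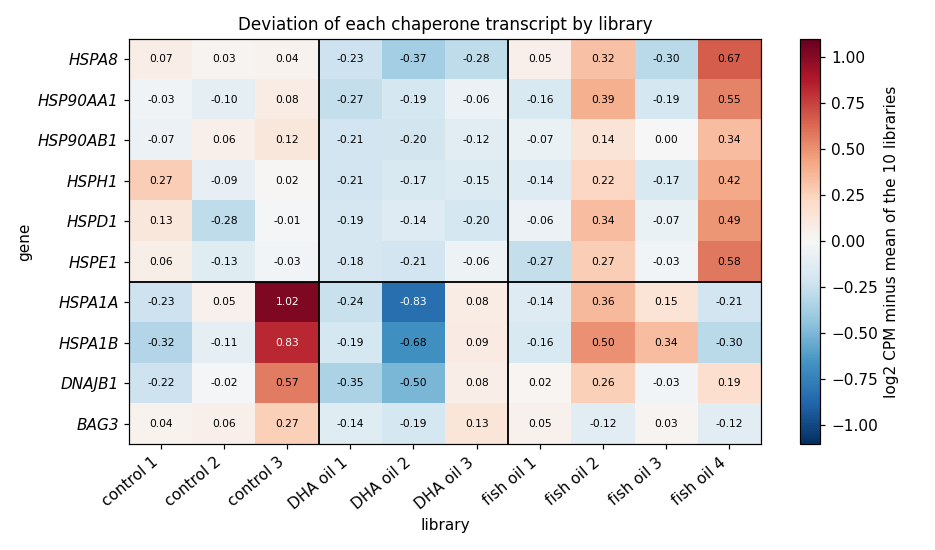
Log2 CPM of each gene (rows) minus its mean over the 10 libraries, by library (columns, separated by diet); red is above and blue below the mean, and the horizontal line parts the 2 sets. The upper 6 rows are red in fish oil 2 and 4 and blue in DHA oil, and the lower 4 rows are red in control 3.

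Correlations across the 10 libraries were computed for all 45 pairs of genes, with permutation p-values adjusted over the pairs. Pearson's r had an adjusted permutation p under 0.05 for 20 pairs and Spearman's rho for 8, or 2 with RLE scaling. The share among pairs of all genes tested was not computed, so these counts cannot be read as particular to chaperones. Within the set of 6 the median r was 0.88 (0.75 to 0.93), within the set of 4 it was 0.78 (0.61 to 0.96), and between the sets 0.14 (-0.29 to 0.74). The sets were drawn from these same values, so a higher r within than between them is no test of the division. The strongest pair was HSPA1A with HSPA1B, at r = 0.961 (adjusted permutation p = 0.0009) and rho = 0.964 (adjusted permutation p = 0.00405), and at r = 0.94 without the 2 libraries farthest from the median of HSPA1A. How reads shared by these nearly identical genes were counted is not given. Their r, which also enters the values of the set of 4, may depend on that counting, which was not tested. Of the other 16012 genes tested, HSPA1B was the most correlated with HSPA1A, and DNAJB1 ranked 11. For each gene of the set of 6 the closest chaperone ranked lower, from 18 for HSPH1 to 69 for HSP90AB1, and for BAG3 it ranked 136. Other genes thus tracked these more closely than any of the 10 did.

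HSP90AA1 correlated with HSPE1 at r = 0.932 (adjusted permutation p = 0.00495) and rho = 0.782 (adjusted permutation p = 0.0534), and at r = 0.61 without the 2 libraries farthest from the median of HSP90AA1. The mitochondrial partners HSPD1 and HSPE1 had r = 0.906 (adjusted permutation p = 0.00495) and rho = 0.685 (adjusted permutation p = 0.0857), and r = 0.53 without the 2 farthest libraries. HSPA1A with DNAJB1 gave r = 0.890 (adjusted permutation p = 0.00495) and rho = 0.794 (adjusted permutation p = 0.0487), which became r = 0.61 without the 2 farthest.

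Leaving out fish oil replicates 2 and 4 made the sets less distinct. Over the remaining 8 libraries the median r between the sets was 0.45 (0.06 to 0.85), with all 24 pairs positive, and 6 of the 45 pairs had an adjusted permutation p under 0.05. Within the set of 6 the median r was 0.56 (0.18 to 0.76), so much of that relation rested on those 2 tumours, and HSPD1 with HSPE1 stood at 0.53. Within the set of 4 the median r was 0.93 (0.83 to 0.97), with HSPA1A and DNAJB1 at 0.96 and DNAJB1 and BAG3 at 0.95. These 8 still held control replicate 3 and DHA oil replicate 2, the extremes of that set. Over 10 libraries DNAJB1 with BAG3 had r = 0.61 (adjusted permutation p = 0.122). Without the 2 of the 10 farthest from the median of the first gene named, r was -0.05 for DNAJB1 with BAG3. It was 0.12 for HSPA1A with BAG3 and 0.68 for HSPA1B with BAG3. Over the 8 libraries HSP90AB1 correlated with DNAJB1 at 0.83 and with HSPA1A at 0.83, and HSP90AA1 with BAG3 at 0.85.

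Within diets, after the diet means were removed, the median r was 0.87 within the set of 6, 0.74 within the set of 4 and -0.04 between them, for sets drawn from the same libraries. The gene outside the 10 whose log2 CPM most resembled their mean standardised level over the 10 libraries was ENSG00000010278, at r = 0.952, followed by ENSG00000034971, at r = 0.945; the table gives no names for them.

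**Figure D5:**
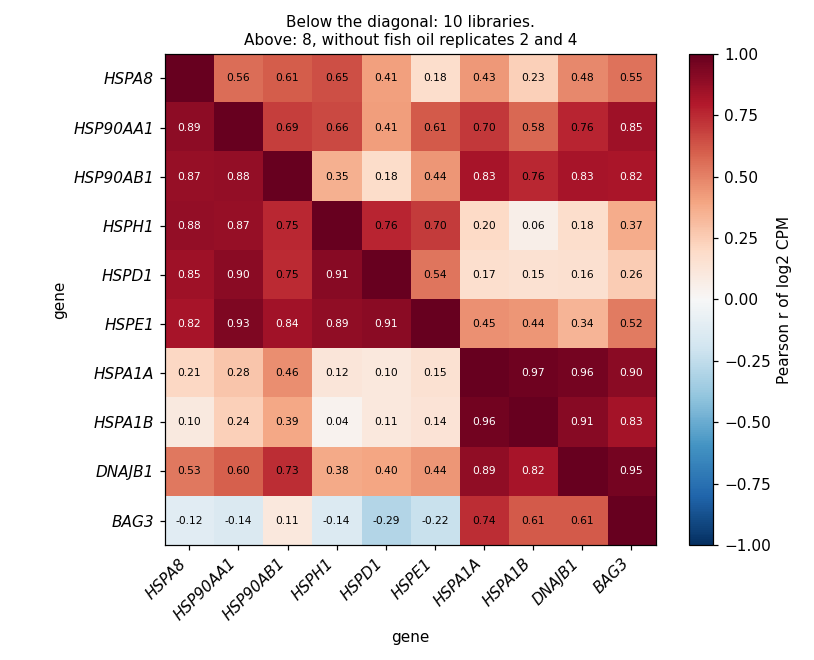
Pearson r of log2 CPM for each pair of genes (rows and columns), over 10 libraries below the diagonal and over 8, without fish oil replicates 2 and 4, above it. The upper left block of 6 genes has a median of 0.88 below and 0.56 above the diagonal, and the lower right block of 4 genes 0.78 and 0.93. The blocks were drawn after the values were seen.

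Ratios between chaperones within a library do not depend on the scaling of libraries, and 5 were compared in the 4 comparisons. The only ratio whose groups did not overlap was HSPA1A to HSPA1B. HSPA1A made up 51.6%, 52.8% and 53.3% of the reads of the pair in control replicates 1 to 3, 49.1%, 47.4% and 49.9% in DHA oil, and 50.4%, 47.5%, 46.7% and 51.5% in fish oil. Control replicate 1 and fish oil replicate 4 were almost equal, with 95% Clopper-Pearson intervals of 48.4% to 54.8% and 48.2% to 54.8%, which cover counting error only.

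On the log2 scale the ratio was 0.15 ± 0.05 in control tumours (SD, n = 3), -0.07 ± 0.07 with DHA oil (n = 3) and -0.06 ± 0.13 with fish oil (n = 4). The oils together were -0.21 from control (exact permutation test, two-sided, p = 0.0167, the smallest that 3 against 7 allows; adjusted p = 0.333 over 20 tests). DHA oil alone gave -0.22 (exact p = 0.1, the smallest that 3 against 3 allows) and fish oil alone -0.21 (exact p = 0.0571, the smallest that 3 against 4 allows). None passed the adjusted threshold, and with these group sizes none of the 20 tests could have. How reads shared by these 2 nearly identical genes were counted is not given in the sources used here, so the split between them is uncertain. With the counts of the pair summed, the log2 fold change was -0.56 with DHA oil and -0.21 with fish oil, each relative to control.

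The other 4 ratios overlapped between the diets in each comparison. The log2 ratio of HSP90AA1 to HSP90AB1 was -0.80 ± 0.10 in control tumours (SD, n = 3), -0.74 ± 0.06 with DHA oil (n = 3) and -0.70 ± 0.22 with fish oil (n = 4). The ratio of HSPD1 to HSPE1 was 2.65 ± 0.11, 2.64 ± 0.11 and 2.70 ± 0.13 in the same order. The inducible HSP70 pair relative to HSPA8 gave -3.19 ± 0.65, -3.35 ± 0.37 and -3.47 ± 0.62, and DNAJB1 relative to HSPA8 gave -3.14 ± 0.43, -3.17 ± 0.28 and -3.28 ± 0.31. The adjusted exact permutation p of these 4 ratios was between 0.941 and 1 in all 4 comparisons. Groups of 3 against 3, 3 against 4 and 3 against 7 libraries allow no p below 0.1, 0.0571 and 0.0167. With adjustment over 20 tests, none of the ratio tests could have passed the threshold, both oils together included. They therefore cannot show whether a ratio differed.

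Together the 10 genes held 0.507% ± 0.023 of all counts in control tumours (SD, n = 3), 0.437% ± 0.014 with DHA oil (n = 3) and 0.562% ± 0.105 with fish oil (n = 4). The DHA oil libraries, at 0.428% to 0.453%, were all below the controls, at 0.489% to 0.534%. Fish oil ran from 0.464% to 0.686%, above every DHA oil library and overlapping the controls, and its highest values, 0.686% and 0.611%, were in replicates 4 and 2. The remaining fish oil libraries, replicates 1 and 3, were at 0.486% and 0.464%, both below every control. The 10 most abundant genes took up 4.83% of the reads of fish oil replicate 4, and 6.16% to 7.72% in the other 9 libraries, and their part in this share was not tested. The share is a sum over genes of very different counts, led by HSP90AB1, HSPA8 and HSP90AA1.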

How the data were processed

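Bulk mRNA libraries of 10 tumours were analysed, grouped by their titles and treatment labels. The deposited table holds raw counts, whole reads per human Ensembl gene. Per the labels' protocols, libraries were stranded and read as single 75 bp ends. The submitters' processing notes name STAR, GRCh38 and HTSeq 0.9.0. Not given in the sources used here are the strand setting, how reads shared between genes were counted, and whether reads of the mouse host were removed, so near-identical, overlapping and antisense genes are uncertain.

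The 10 genes and all lists were chosen with earlier results of these data known. Names of the 10 came with their identifiers. The 15 other gene lists and marker lists (187 symbols) could not be applied, since the mouse reference at hand matched 0 identifiers. For the same reason no position or sequence is printed.

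Genes were filtered with filterByExpr (minimum count 10), TMM-scaled, and fitted over all libraries by diet alone using the quasi-likelihood test of edgeR 4.0.16 (R 4.3.3), with Benjamini-Hochberg adjustment over 16013 genes and a threshold of 0.05. SEs were derived from the F statistic, and 95% intervals use the total degrees of freedom (median 14.7). Log2 CPM uses a prior count of 2, and ratios add 0.5 to each count. Ratios were tested by exact permutation, and correlations with 100000 permutations (SciPy 1.17.1). All 10 genes are named. A fold change is given singly for genes with an unadjusted p under 0.05, with groups that do not overlap, or among the 3 smallest p of a comparison. A planned test of the summed share is not given, since members were chosen with results known. Scripts were tested on simulated data. Alternatives were other scalings and filters, DESeq2 1.42.0, limma-voom (limma 3.58.1) with quality weights, only the groups compared, a replicate block, HSPA1A and HSPA1B summed, each library left out, and fish oil replicates 2 and 4 left out.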

Additional observations from a re-analysis of the deposited data

How the results depend on the processing

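None of the 10 genes was called in any comparison under any of the 21 other settings of the fit, replicate block included (0 called). Of all genes, 0% to 0.292% were called in those fits. The smallest adjusted p of a chaperone gene over those fits of edgeR, DESeq2 and limma-voom was 0.381, and the ranges by comparison were 0.381 to 1 for DHA oil against control, 0.534 to 1 for fish oil against control, 0.405 to 1 for fish oil against DHA oil, and 0.647 to 1 for both oils. All 10 genes stayed lower in DHA oil than in control in each of these settings, and 9 or 10 stayed higher in fish oil than in DHA oil. Some settings could hardly alter a value, such as leaving out a library of a group that is not compared. In DHA oil against control HSPA1A stayed at -0.67 without each single fish oil library, and HSPA8 at -0.34 with HSPA1A and HSPA1B summed. Counts of kept directions include such values, so they do not measure how firm a direction is. Over all 10 genes and 4 comparisons, 783 of 830 recomputed log2 fold changes kept their direction. Of the 47 that did not, 23 were in fish oil against control, 19 with both oils together and 5 between the oils. For the 14 fold changes given singly by the naming rule, 288 of 291 kept it. The exceptions there were HSPA1A in fish oil against control, which ran from -0.57 to 0.14 as each library was left out, DNAJB1 in both oils against control, from -0.37 to 0.0559, and HSPD1 in fish oil against control, -0.024 without fish oil replicates 2 and 4. Both positive ends came without control replicate 3, and the cause was not tested. The count of correlated pairs was 6 instead of 20 without fish oil replicates 2 and 4, over fewer libraries. With the 10 most abundant genes left out of the total, which makes every share larger by construction, the share held by the chaperone genes was 0.545% in control and 0.470% in DHA oil. Same-numbered libraries of different diets had deviations correlated between -0.17 and 0.18. Differently numbered libraries were not compared, and the labels do not say what a number marks, so this cannot show whether the numbers pair the samples. With the replicate block 3 of the 10 genes had an unadjusted p under 0.05 in DHA oil against control, against 3.73% of all genes in that fit, and 1 without it, against 2.74%. HSPA8 in fish oil against DHA oil was 0.33 with the block and 0.31 with limma-voom. In fish oil against control HSPD1 was 0.12 and 0.11, and HSPA1A was -0.15 with the block. The fit of only the groups compared was not run for both oils, since it holds all groups. Depth limits HSPE1 most, with 159 to 409 counts.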
